A study of Mus musculus with 6 samples.

Results

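The CHD family of chromatin remodelers, Chd1 to Chd9, was followed across mouse embryonic fibroblasts (MEFs) with and without the H2B ubiquitin ligase subunit Rnf40. Members were taken by symbol: all 9 named genes were among the 29955 genes of the deposited expression table, and all 9 passed the filter on low values, which left 16378 genes for testing. Of the 9, Chd2, Chd3 and Chd9 fell and Chd1, Chd6, Chd7 and Chd8 rose in Rnf40-/- MEFs, while Chd4 and Chd5 did not pass the test.

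CHD proteins are ATP-dependent remodelers of the SNF2 type that carry paired chromodomains ahead of the ATPase, and they slide, space, eject or exchange nucleosomes. Chd1 and Chd2 form subfamily I and work largely on transcribed chromatin. Chd3, Chd4 and Chd5 form subfamily II and serve as alternative ATPases of the NuRD complex, which couples remodeling to histone deacetylation. Chd6 to Chd9 form subfamily III, whose members act at promoters and enhancers and include several genes of human developmental disorders.

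RNA-seq was performed on 3 Rnf40+/+ and 3 Rnf40-/- libraries of primary MEFs at passage 3. The conditional allele carried loxP sites around exons 3 and 4 of Rnf40, and deletion was driven by Rosa26-CreERT2, a Cre expressed in most cell types that is active only with 4-hydroxytamoxifen (4-OHT). For the knockout, cells received 250 nM 4-OHT for 5 days and were then kept for 3 days without it. Per the study, its MEFs derived from embryos with the Cre and both Rnf40 alleles floxed. Whether the Rnf40+/+ cells received 4-OHT is not stated, so deletion and treatment cannot be told apart, and no label says that the 3 libraries of a group were separate embryos or cultures, so p-values measure the spread between these libraries, which may be technical.

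Depth ranged from 17053436 to 26344170 reads on genes per library, and values are given as normalized counts, that is, reads divided by a size factor for the library. Rnf40 itself was at 1278, 1195 and 1096 with both alleles intact and at 439, 519 and 487 after deletion. All libraries therefore matched their labels in direction, with 40.5% of the Rnf40 level, counted over all its exons, left in the knockout. The fibroblast label was met in both groups, although 10 of 12 fibroblast markers were lower in the knockout and their summed level went from 680090 to 751048 in Rnf40+/+ to 407185 to 410101 in Rnf40-/-. Proliferation markers moved with the genotype too: 8 of 8 were lower, with a median log2 fold change of -2.58 and summed normalized counts of 5316 to 6369 against 1812 to 1971. Beside both lists, 24.1% of all genes tested were lower at an adjusted p under 0.05 (limma). Top2a, the topoisomerase of dividing cells, changed by -3.20 and Ccnb1, the mitotic cyclin, by -3.24 on the log2 scale (adjusted p = 2.33e-08 and 5.90e-07, limma). The part of proliferation and fibroblast marker levels in the CHD changes was not tested, and in bulk RNA fewer cells of a type and less RNA per cell cannot be told apart.

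With an adjusted p under 0.05 (limma on log2(normalized count + 1), Benjamini-Hochberg over all 16378 genes), 7 of 9 CHD genes were called, against 47.4% of all genes tested. In the higher direction 4 members were called (23.3% of all genes) and in the lower direction 3 (24.1% of all genes). The 3 knockout values lay outside the range of the 3 Rnf40+/+ values for 7 members, against 56.5% of all genes. Calls were thus frequent across the whole transcriptome, and the members' share is to be read against that. The median log2 fold change of the 9 members was 0.38 against -0.0035 over all genes, and the median absolute change was 0.52 against 0.33. With the study's criteria on the same limma fit (mean normalized count above 15, a fold change beyond 1 on the log2 scale in either direction, unadjusted p under 0.05), 2 members were lower, Chd2 and Chd3, against 5.70% of all genes, and 0 were higher, against 4.25%; at an unadjusted limma p under 0.05 alone, as by edgeR and DESeq2 at an adjusted p of 0.05, 4 members were higher.

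**Figure D1:**
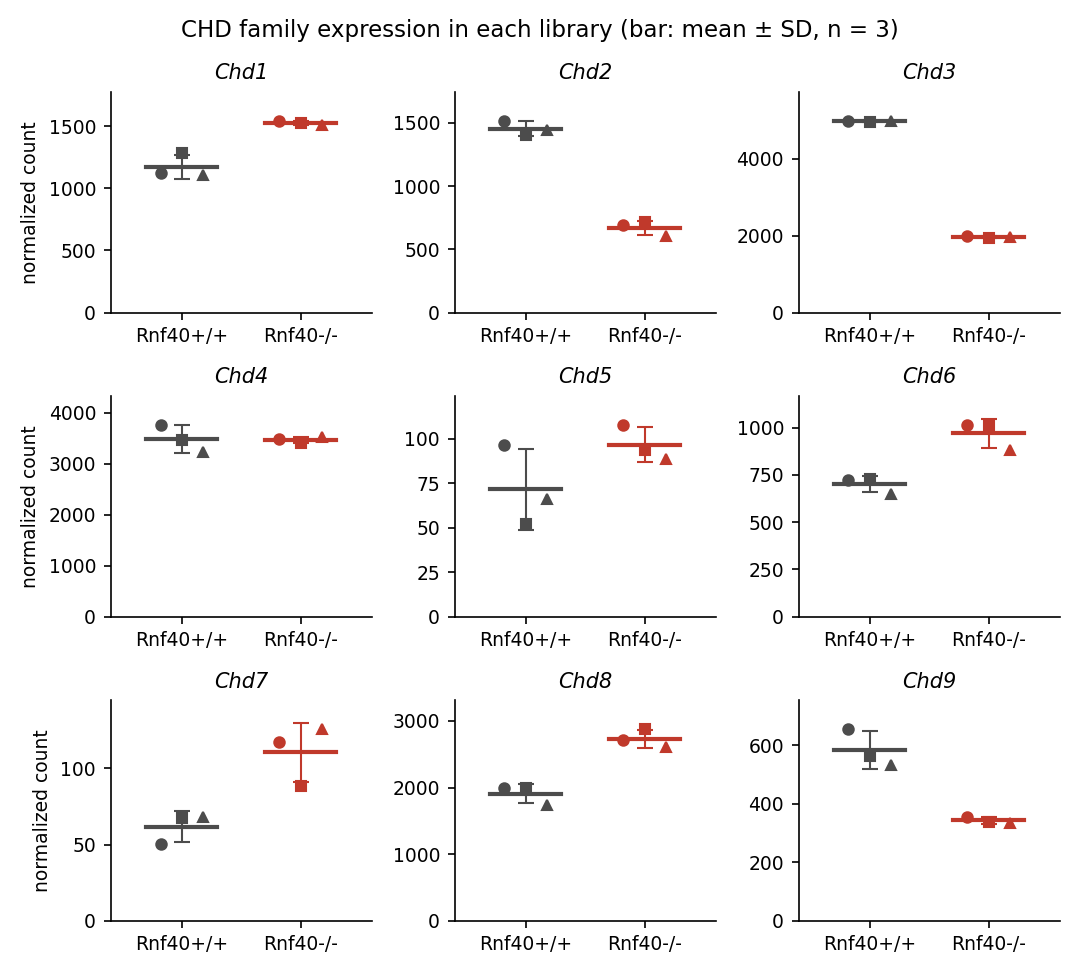
Normalized counts of the 9 CHD genes in each library (vertical axis, each panel from 0; circles, squares and triangles are replicates 1, 2 and 3; horizontal bars are means and error bars SD, n = 3). The Rnf40+/+ and Rnf40-/- libraries are apart in every panel other than Chd4 and Chd5, with Chd3 falling from 4968 to 1974 and Chd8 rising from 1908 to 2733.

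In subfamily I the paired remodelers went in opposite directions, Chd2 down and Chd1 up. Chd2 (chr7:80571577-80686632, minus strand, mm9), a remodeler linked to deposition of the histone variant H3.3 and to human epilepsy, was measured in Rnf40+/+ MEFs at normalized counts of 1515, 1399 and 1441, and in Rnf40-/- MEFs at 692, 713 and 604. Every knockout library was far below the lowest Rnf40+/+ library. The mean went from 1452 ± 59.0 to 670 ± 57.7 (SD, n = 3 each), which left 46.1%, a log2 fold change of -1.12 (SE 0.08, 95% interval -1.29 to -0.94, adjusted p = 6.49e-07, limma). Of all genes tested, 4.86% had a lower fold change than Chd2.

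Chd1 (chr17:15841931-15909574, plus strand), which binds methylated H3K4 through its chromodomains and travels with elongating RNA polymerase II, gave 1126, 1286 and 1107 normalized counts in Rnf40+/+ and 1543, 1527 and 1509 in Rnf40-/- MEFs. The groups did not overlap, and the knockout libraries were the more tightly spaced. The rise from 1173 ± 98.3 to 1526 ± 17.0 corresponded to a log2 fold change of 0.38 (SE 0.07, 95% interval 0.22 to 0.54, adjusted p = 0.00119, limma). The size of this rise was exceeded by 21.2% of all genes.

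The ratio of Chd1 to Chd2 reads within a library does not depend on any size factor. On the log2 scale it was -0.43, -0.12 and -0.38 in Rnf40+/+ and 1.16, 1.10 and 1.32 in Rnf40-/- libraries. Chd2 thus had the more reads in each Rnf40+/+ library and Chd1 in each knockout library. The difference of the group means was 1.50 (two-sided exact permutation p = 0.10, the smallest that 3 against 3 libraries allow).

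Subfamily II, the NuRD ATPases, held the largest fall of the family, in Chd3, beside a Chd4 that stayed level. Chd3 (chr11:69156775-69182928, minus strand) was measured at 4967, 4957 and 4981 normalized counts in Rnf40+/+ and at 1998, 1951 and 1975 in Rnf40-/- libraries. The libraries of each group lay within a narrow band, with a coefficient of variation of 0.239% in Rnf40+/+ and 1.19% in Rnf40-/-, and the bands were far apart. The mean went from 4968 ± 11.9 to 1974 ± 23.5, leaving 39.7%, at a log2 fold change of -1.33 (SE 0.06, 95% interval -1.46 to -1.21, adjusted p = 1.51e-08, limma). A lower fold change was found for 3.28% of all genes. Of the 50-base stretches of annotated Chd3 transcripts, 3.83% also occur in Gm17305, an antisense gene model that overlaps Chd3 and has no row in the table. The strand setting used for counting is not stated, so that reads of these stretches could not be assigned with certainty. Antisense gene models with no row also overlap Chd5, Chd6, Chd8 and Chd9. The search for shared stretches covered protein-coding transcripts only, which leaves out the models at Chd5, Chd6 and Chd8.

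Chd4 (chr6:125045999-125080609, plus strand), the main NuRD ATPase of many cell types, was at 3764, 3469 and 3221 normalized counts in Rnf40+/+ and at 3481, 3402 and 3517 in Rnf40-/- MEFs. The knockout values fell inside the range of the Rnf40+/+ values. Means of 3485 ± 272 and 3467 ± 58.7 gave a log2 fold change of -0.00 with a 95% interval from -0.15 to 0.15 (adjusted p = 0.964, limma), so that a change larger than these bounds was outside the interval.

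The log2 ratio of Chd3 to Chd4 reads was 0.40, 0.51 and 0.63 in Rnf40+/+ and -0.80, -0.80 and -0.83 in Rnf40-/- libraries. Its sign was opposite in the groups, and the mean difference was -1.33 (two-sided exact permutation p = 0.10, again the smallest possible).

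Chd5 (chr4:151712760-151764303, plus strand), a NuRD ATPase known mainly from neurons and testis and described as a tumor suppressor, was present at few reads, 51 to 106 per library. Its normalized counts were 96.7, 52.0 and 66.3 in Rnf40+/+ and 108, 93.9 and 88.8 in Rnf40-/- libraries. Replicate 1 of Rnf40+/+ was above knockout replicates 2 and 3, so the groups overlapped. The means of 71.7 ± 22.8 and 96.9 ± 10.0 gave a log2 fold change of 0.47 (SE 0.23, 95% interval -0.02 to 0.97, adjusted p = 0.107, limma). Without Rnf40+/+ replicate 1, the highest of its group, the log2 fold change was 0.71 and the adjusted p 0.0128 (limma). Without Rnf40+/+ replicate 2, the lowest, they were 0.27 and 0.357, and no other single omission gave a call.

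The study also measured Chd5 by qRT-PCR, and the primer pair is shown because it tells which part of the transcript that assay reads. The pair, written 5′ to 3′, was as follows.
forward: tggaccctgactactgggag
reverse: tcatcctgccactcctggtc
It spans exons 26 and 27 of the 42-exon transcript ENSMUST00000030775 with an amplicon of 148 bases (chr4:151751765-151752299, mm9), a match that was also present in 3 other annotated Chd5 transcripts. The assay thus read an internal exon junction, whereas the sequencing counts cover all exons. Neuronal markers, listed because Chd5 is a gene of neurons, summed to 2220 to 3517 normalized counts in Rnf40+/+ and 2192 to 2399 in Rnf40-/-. Of the 5 that could be tested 1 rose and 1 fell, against 23.3% of all genes higher and 24.1% lower. Rnf40+/+ replicate 1, the library with the most Chd5 in its group, also had the most Tubb3 (2670 against 1275 and 1353) and Snap25 (39.4 against 2.04 and 3.99), neuronal genes picked here after their values were seen. Lowest in that library within the group were Gap43 (283 against 367 and 446), Dcx (10.7 against 18.4 and 11.2), Elavl3 (2.39 against 3.06 and 3.19) and Nefl (2.39 against 4.08 and 5.59). Elavl3 and Nefl had only 2 reads each there. Syp was slightly highest in that library (13.1 against 12.2 and 12.8), and Stmn2 lay between the others (496 against 537 and 426). Rbfox3, a defining marker of mature neurons, was at 0 to 1.60 in the 6 libraries. The part of neuronal transcripts in the Chd5 values was not tested.

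**Figure D2:**
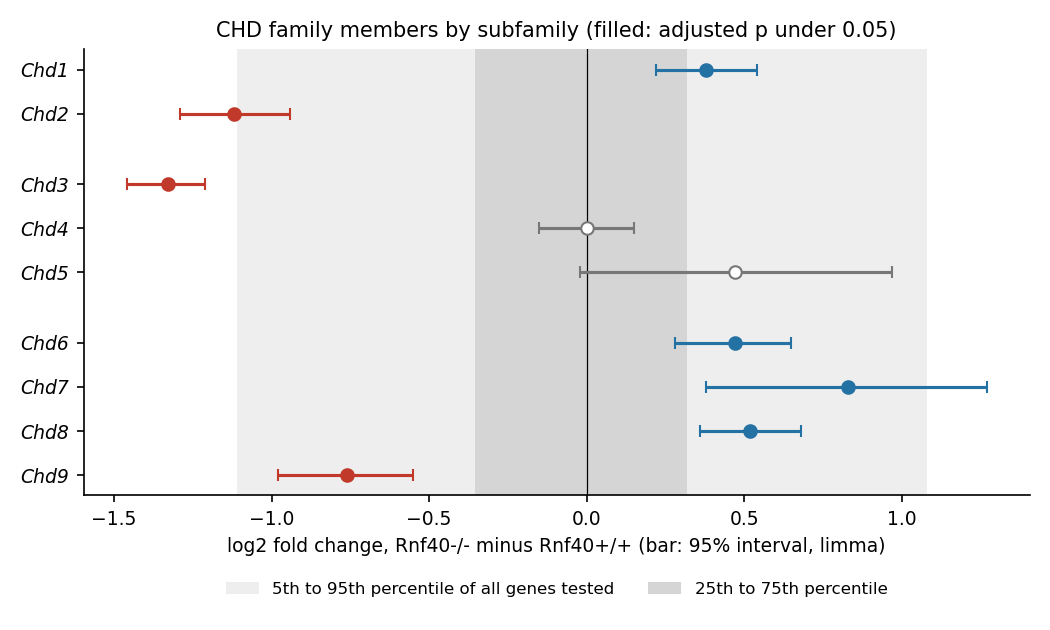
Log2 fold changes of the 9 CHD genes (horizontal axis, Rnf40-/- minus Rnf40+/+) with 95% intervals from limma, grouped by subfamily; filled symbols passed an adjusted p of 0.05. Shaded bands give the range of all 16378 genes from the 5th to the 95th percentile, -1.11 to 1.08, and from the 25th to the 75th, -0.355 to 0.318; Chd2 and Chd3 lie beyond the outer band and the other called members inside it.

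In subfamily III, Chd6, Chd7 and Chd8 rose and Chd9 fell. Promoter windows from RefSeq (GRCm38.p6, 250 bases before to 50 after an annotated start) were at hand for 5 of the 9 members, with none for Chd1, Chd2, Chd3 and Chd7. Those of Chd8 and Chd6, which rose, and of Chd9, which fell, are shown so that the start regions of members that moved in opposite directions can be read side by side. Capitals mark the GC box GGGCGG, the core of the Sp1 motif, and the CCAAT box, the core of the NF-Y motif, on either strand (CCGCCC and ATTGG are the reverse complements). The windows are chr14:52257711-52258010 on the minus strand for Chd8, chr2:161109037-161109336 on the minus strand for Chd6 and chr8:90828585-90828884 on the plus strand for Chd9, whose more upstream start of a pair of annotated starts was used.
Chd8: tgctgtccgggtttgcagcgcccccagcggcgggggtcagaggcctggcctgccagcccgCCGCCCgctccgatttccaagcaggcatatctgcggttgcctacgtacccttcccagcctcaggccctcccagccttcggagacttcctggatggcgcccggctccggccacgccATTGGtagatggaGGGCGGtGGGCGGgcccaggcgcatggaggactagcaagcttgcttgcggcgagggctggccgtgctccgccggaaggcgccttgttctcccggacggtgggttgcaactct
Chd6: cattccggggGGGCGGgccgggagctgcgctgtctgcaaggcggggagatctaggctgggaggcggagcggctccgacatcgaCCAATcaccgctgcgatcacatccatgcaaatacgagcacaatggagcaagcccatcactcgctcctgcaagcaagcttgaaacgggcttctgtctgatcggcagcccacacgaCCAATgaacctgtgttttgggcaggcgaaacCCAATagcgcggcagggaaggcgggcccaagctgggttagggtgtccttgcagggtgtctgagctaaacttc
Chd9: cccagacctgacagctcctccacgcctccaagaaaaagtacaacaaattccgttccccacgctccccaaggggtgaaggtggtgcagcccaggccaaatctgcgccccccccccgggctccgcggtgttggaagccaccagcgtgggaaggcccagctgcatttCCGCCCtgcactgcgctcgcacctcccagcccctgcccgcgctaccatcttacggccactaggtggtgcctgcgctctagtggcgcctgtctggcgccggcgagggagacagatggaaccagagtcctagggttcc
The Chd8 window held 3 GC boxes and 1 CCAAT box, the Chd6 window 1 GC box and 3 CCAAT boxes, and the Chd9 window 1 GC box and 0 CCAAT boxes. Among 27025 promoter windows of the same length, 35.9% held a GC box and 37.9% a CCAAT box, so neither motif is uncommon. The 3 windows had 26, 20 and 19 CpG dinucleotides in that order, against a median of 7.0 per window, and a GC content of 69.3%, 61.0% and 65.7%, against a median of 52.7%. All 3 were thus richer in CpG than the typical window. The window at the other annotated Chd9 start (chr8:90931999-90932298, plus strand) was not, with 1 CpG, a GC content of 34.7%, 0 GC boxes and 0 CCAAT boxes. Each window of Chd4 and Chd5, the members not called, held 3 GC boxes, with 1 CCAAT box in those of Chd4 and 0 in those of Chd5. Their CpG numbers were 17 to 33. All of these are matches of letters and not measured binding sites.

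Chd8 (chr14:52817826-52857466, minus strand), which binds beta-catenin and is a frequently mutated gene in autism, was the best measured riser, with 1669 to 2765 reads per library. It had 1993, 1994 and 1738 normalized counts in Rnf40+/+ and 2708, 2882 and 2611 in Rnf40-/- libraries. Each knockout library was above each Rnf40+/+ library. The mean rose from 1908 ± 148 to 2733 ± 137, a log2 fold change of 0.52 (SE 0.07, 95% interval 0.36 to 0.68, adjusted p = 1.26e-04, limma).

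Chd6 (chr2:160772714-160934811, minus strand), a DNA-stimulated ATPase that is less studied than its relatives, gave 723, 726 and 651 normalized counts in Rnf40+/+ and 1015, 1014 and 881 in Rnf40-/- MEFs. Replicate 3 was the lowest in both groups, and the groups stayed apart. From 700 ± 42.4 to 970 ± 77.1 the log2 fold change was 0.47 (SE 0.08, 95% interval 0.28 to 0.65, adjusted p = 7.45e-04, limma).

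Chd7 (chr4:8617553-8794806, plus strand), the gene of CHARGE syndrome and a remodeler of enhancers in neural crest, showed the largest rise on the log2 scale but rested on only 42 to 133 reads per library. Normalized counts were 50.2, 67.3 and 67.9 in Rnf40+/+ and 117, 88.7 and 126 in Rnf40-/- libraries. No knockout value reached down to the Rnf40+/+ range, although the spread within each group was wide, with a coefficient of variation of 16.3% and 17.5%. The change from 61.8 ± 10.1 to 111 ± 19.3 was a log2 fold change of 0.83 (SE 0.20, 95% interval 0.38 to 1.27, adjusted p = 0.00529, limma). A higher fold change was found for 7.51% of all genes, and when single libraries were omitted one after another the Chd7 change ranged from 0.69 to 0.98, with a largest adjusted p of 0.0314.

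Chd9 (chr8:93352734-93578407, plus strand), described as a coactivator in mesenchymal and bone-forming cells, was at 657, 565 and 533 normalized counts in Rnf40+/+ and at 356, 338 and 335 in Rnf40-/- libraries. All knockout values were below all Rnf40+/+ values. The mean fell from 585 ± 64.1 to 343 ± 11.2, leaving 58.6% (log2 fold change -0.76, SE 0.10, 95% interval -0.98 to -0.55, adjusted p = 6.17e-05, limma). Of all genes, 10.1% had a lower fold change.

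Within the subfamily the log2 ratio of Chd8 to Chd9 reads was 1.60, 1.82 and 1.70 in Rnf40+/+ and 2.93, 3.09 and 2.96 in Rnf40-/- libraries, a difference of 1.29 with no overlap (two-sided exact permutation p = 0.10, the smallest possible). By contrast, the ratio of Chd8 to Chd7 overlapped between groups, at 5.31, 4.89 and 4.68 against 4.53, 5.02 and 4.38 (difference -0.32, exact permutation p = 0.300). No 50-base stretch of one CHD member occurs unchanged in another, among protein-coding transcripts. Stretches that differ by a few bases were not searched for, so mixing of reads between paralogs was not fully examined.

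To compare genes with each other, normalized counts were divided by the length of the merged exons in kb (mm9 annotation). In Rnf40+/+ MEFs Chd3 had the highest level per kb, 587 ± 1.40, followed by Chd4 at 435 ± 33.9. Chd2 (152 ± 6.19), Chd8 (151 ± 11.7) and Chd1 (134 ± 11.3) came next, and neither Chd2 and Chd8 nor Chd8 and Chd1 were separated by their spread. Chd9 (44.8 ± 4.91) and Chd6 (36.5 ± 2.21) were lower, and Chd5 (7.48 ± 2.38) and Chd7 (4.48 ± 0.730) the lowest. Against the 13828 genes with a length, Chd3 exceeded 84.8%, Chd4 80.0% and Chd7 5.69%, so the family ran from high to low expression in these fibroblasts.

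In Rnf40-/- MEFs the order per kb was Chd4 (432 ± 7.33), Chd3 (233 ± 2.78), Chd8 (217 ± 10.9), Chd1 (175 ± 1.95), Chd2 (70.3 ± 6.05), Chd6 (50.5 ± 4.02), Chd9 (26.3 ± 0.857), Chd5 (10.1 ± 1.04) and Chd7 (8.02 ± 1.40), with no overlap between neighbours. Chd4 thus took the place of Chd3 at the top, Chd1 lay above Chd2, and Chd6 above Chd9. With the length of the longest transcript instead, Chd8 stood above Chd2 in Rnf40+/+ (233 against 161 per kb) and above Chd3 in Rnf40-/- (334 against 272), Chd6 stood above Chd9 in Rnf40+/+ as well (66.6 against 50.6), and Chd5 and Chd7 overlapped in both groups. Chd4 was above Chd3 and Chd1 above Chd2 in the knockout with both lengths, although Chd1 was already slightly above Chd2 in Rnf40+/+ replicate 2 (50.1% of their sum with merged exons, 51.2% with longest transcripts). A change in the order of Chd9 and Chd6 was found only with merged exons, where the Chd6 length is 19192 bases against 10515 for its longest transcript.

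Expressed as shares of each subfamily's level per kb, Chd1 made up 46.9 ± 2.85% of subfamily I in Rnf40+/+ and 71.4 ± 1.61% in Rnf40-/-. Chd4 made up 42.2 ± 1.87% of subfamily II in Rnf40+/+ and 64.0 ± 0.356% in Rnf40-/-, while Chd3 went from 57.1 ± 2.0% to 34.5 ± 0.232%. Chd5 stayed a small part of the NuRD ATPase transcripts in both groups, at 0.723 ± 0.210% and 1.50 ± 0.149%. In subfamily III, Chd8 went from 63.8 ± 0.830% to 71.9 ± 1.03%, Chd9 from 18.9 ± 1.21% to 8.72 ± 0.404%, Chd6 from 15.4 ± 0.273% to 16.7 ± 0.741% and Chd7 from 1.91 ± 0.411% to 2.67 ± 0.568%. Each of these shares did not overlap between groups (exact permutation p = 0.10 each, two-sided) except that of Chd7 (exact permutation p = 0.200). With the longest transcript as length the Chd6 share overlapped as well (exact permutation p = 0.200). Shares within a subfamily depend on each other, so they are not separate results for each gene. Chd4 and Chd5 were not called themselves, although their shares rose.

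**Figure D3:**
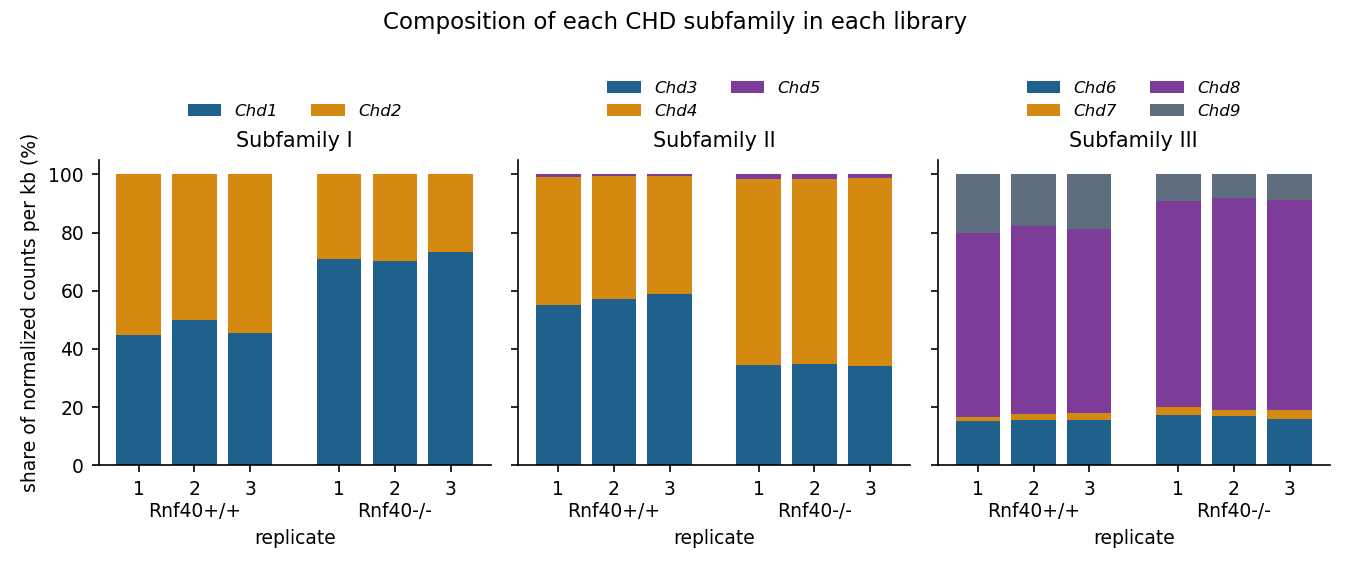
Share of each CHD gene in its subfamily's summed normalized counts per kb (vertical axis, percent; merged exon length) for each of the 6 libraries (horizontal axis, replicates 1 to 3 of each genotype). Chd1 takes 44.8 to 50.1% of subfamily I in Rnf40+/+ and 70.1 to 73.2% in Rnf40-/-, and Chd3 goes from 55.0 to 59.0% of subfamily II to 34.3 to 34.7%.

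Summed over the 9 genes, CHD transcripts went from 14404 ± 552 to 11891 ± 212 normalized counts, a ratio of 0.826, and per kb from 1553 ± 56.4 to 1223 ± 15.3, a ratio of 0.787. Every knockout sum was below every Rnf40+/+ sum. The mean of Chd3 fell by more than the mean sum did, from 4968 to 1974 normalized counts and from 587 to 233 per kb. The mean sum of the members other than Chd3 was therefore not lower in the knockout, although Chd2 and Chd9 fell as well. Chd3 held the most of the family's level per kb in Rnf40+/+ (37.8 ± 1.45%, against 28.0 ± 1.2% for Chd4) and Chd4 in Rnf40-/- (35.4 ± 0.936%, against 19.1 ± 0.300% for Chd3).

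Among the non-ATPase partners of the NuRD complex, 2 of 12 tested rose, 4 fell and 6 did not pass, against 47.4% of all genes called in either direction. Their median log2 fold change was -0.09, beside -0.0035 over all genes. Rbbp7, a histone-binding WD40 subunit, changed by -0.43 (adjusted p = 2.13e-04, limma) and Cdk2ap1, a small accessory subunit, by -0.28 (adjusted p = 0.00729). Mbd2, which binds methylated DNA, changed by 0.24 (adjusted p = 0.0164) and Gatad2a, which bridges the CHD and deacetylase modules of the complex, by 0.21 (adjusted p = 0.0231, limma). In limma each of the latter pair lost its call when single libraries were omitted, Mbd2 without either of knockout replicates 1 and 2 (adjusted p = 0.0784 and 0.0527) and Gatad2a without any library but Rnf40+/+ replicate 2 (adjusted p = 0.0503 to 0.0769). The deacetylases Hdac1 (2535 ± 117 and 2469 ± 98.5 normalized counts, log2 fold change -0.04, 95% interval -0.18 to 0.10) and Hdac2 (2916 ± 137 and 2899 ± 66.9, -0.01, -0.14 to 0.13) were not called (adjusted p = 0.661 and 0.930, limma). Mbd3, the scaffold of the other NuRD form, gave 1403, 1640 and 2028 against 1471, 1312 and 1571 (log2 fold change -0.21, adjusted p = 0.168, limma). Without Rnf40+/+ replicate 1, its lowest in that group, the change was -0.33 (adjusted p = 0.0172, limma). Without Rnf40+/+ replicate 3, its highest, it was -0.07 (adjusted p = 0.571), and no other single omission gave a call.

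Chd4 also acts outside NuRD, with Adnp and HP1 proteins in the ChAHP complex. In that list of 4 genes 2 fell and 2 did not pass in limma, against 47.4% of all genes called in either direction. Cbx3, which encodes HP1 gamma, changed by -0.55 (adjusted p = 2.03e-05, limma) and Adnp by -0.18 (adjusted p = 0.0351), and Adnp lost its call without Rnf40+/+ replicate 1 or 2 or knockout replicate 1 or 3 (adjusted p = 0.0528 to 0.160). Around Chd1 and Chd2, which are linked to H3.3, the list of H3.3 genes and chaperones held 9 tested genes. Of these, 1 rose, 1 fell and 7 did not pass, against the same 47.4%. The riser was Ubn1, a subunit of the HIRA chaperone complex (log2 fold change 0.69, adjusted p = 1.45e-05, limma), and the faller H3f3b, an H3.3 gene (-0.66, adjusted p = 1.65e-05).

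Other remodeler families were set beside the CHD genes. Among 10 tested ISWI complex genes, 3 rose, 3 fell and 4 did not pass, against 47.4% of all genes called in either direction. Their median was 0.14. Bptf, the large NURF subunit, rose (log2 fold change 0.54, adjusted p = 4.45e-05, limma), as did Baz1a of the ACF complex (0.46, adjusted p = 0.00103), while Pole3, a histone-fold subunit shared with DNA polymerase epsilon, fell (-0.99, adjusted p = 1.58e-04) and so did Baz2b (-0.47, adjusted p = 0.00430). Smarca5, the main ISWI ATPase, was at 2284 ± 171 and 2538 ± 102 normalized counts (log2 fold change 0.15, adjusted p = 0.0971, limma).

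Of 21 INO80-family genes, 4 rose, 7 fell and 10 did not pass, against 47.4% of all genes called in either direction. Their median was -0.07. Ep400, the ATPase of the TIP60 complex, and Nfrkb, an INO80 subunit, each changed by 0.58 (adjusted p = 5.17e-05 and 6.40e-05, limma), and Yeats4, a reader of acetylated histones, and Tfpt by -0.71 and -0.51 (adjusted p = 2.87e-05 and 0.00977).

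Among 22 SNF2-family ATPases outside the CHD group, 6 rose, 7 fell and 9 did not pass, against 47.4% of all genes called. Their median was 0.01. Ep400 was again the largest rise, followed by Btaf1, which removes TBP from DNA (0.48, adjusted p = 1.21e-04, limma), and Smarca4, the SWI/SNF ATPase also called BRG1, rose by 0.24 (adjusted p = 0.00760). The largest falls were those of Ercc6l, a translocase of mitotic chromosomes, from 85.8 ± 8.10 to 11.7 ± 8.56 normalized counts (-2.98, adjusted p = 9.23e-05, limma), and of Rad54l of homologous recombination, from 59.8 ± 23.2 to 15.1 ± 6.6 (-1.92, adjusted p = 9.67e-04). Both log2 changes were below that of Chd3, at far lower read numbers.

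**Figure D4:**
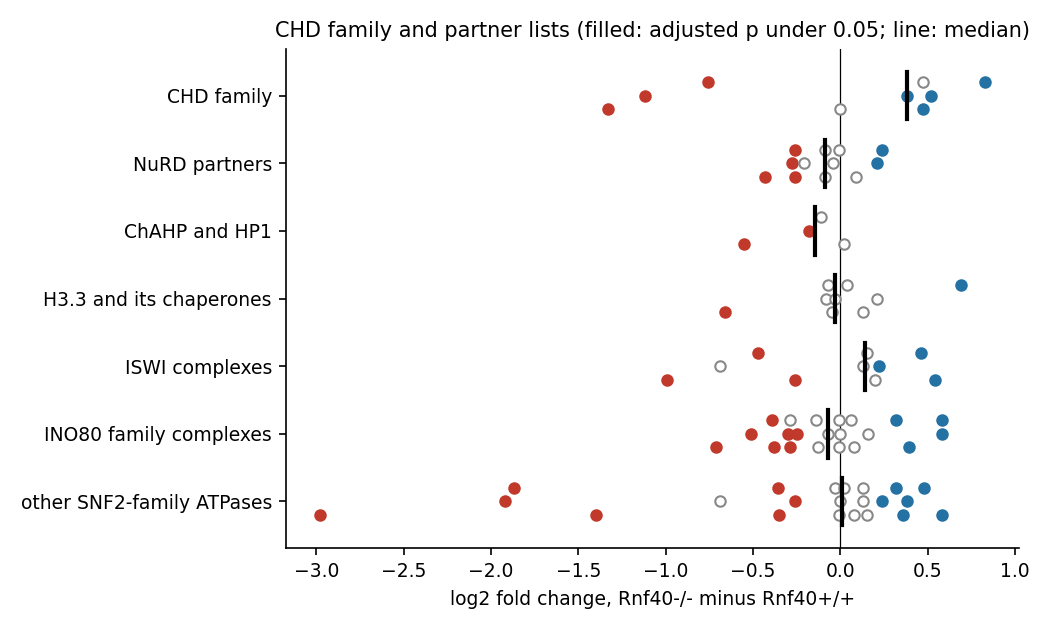
Log2 fold changes (horizontal axis, Rnf40-/- minus Rnf40+/+) of every tested gene of the CHD family and of 6 lists of partners and other remodelers, 1 point per gene; filled points passed an adjusted p of 0.05 in limma, blue higher and red lower, and vertical lines are medians. The CHD median lies at 0.38 and the list medians between -0.15 and 0.14, with Ercc6l the lowest point at -2.98.

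The tested genes next to the members on either side, matched by symbol and 0.548 to 2077.0 kb away, were examined for shared movement. Of 18 such genes 5 rose, 4 fell and 9 did not pass, against 23.3% of all genes higher and 24.1% lower. Of the 14 next to a called member 8 were called, 3 of them in the member's direction, against 47.4% of all genes called. The called ones included Ptprt, 413.0 kb from Chd6 and in its direction, and Cyld, 2077.0 kb from Chd9 and against its direction. Beside Chd7, Rab2a, which lies 82.6 kb away, changed by 0.17 (adjusted p = 0.0416, limma) and Clvs1, 402.0 kb away, by 0.03 (adjusted p = 0.887). Beside Chd3, A030009H04Rik, 0.632 kb away, changed by -0.57 and was not called (adjusted p = 0.0954, limma), whereas Cyb5d1, 22.5 kb away, rose by 0.48 (adjusted p = 0.0248). Picked after their values were seen, Rgma, 6.79 kb from Chd2, fell with it (-1.23, adjusted p = 6.34e-06, limma), and Supt16h, a FACT subunit 0.912 kb from Chd8, fell where Chd8 rose (-0.45, adjusted p = 0.00268).

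Likeness of pattern over the 6 libraries was the Euclidean distance of log2 values centred on each gene's Rnf40+/+ mean. The genes nearest to Chd3 were Hoxc6 and Fblim1, both at a distance of 0.10. Hoxc6 went from 1519 ± 22.6 to 610 ± 21.2 and Fblim1 from 1741 ± 28.6 to 681 ± 21.6 normalized counts. Nearest to Chd7 were Uaca (579 ± 95.2 to 1034 ± 91.4, distance 0.21) and Emid1 (17.0 ± 3.66 to 32.5 ± 5.32, distance 0.23). Likeness over 6 libraries of 2 groups describes only how these values ran in parallel.

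Markers of other cells were examined as well, and their calls stand beside 23.3% of all genes higher and 24.1% lower. Of macrophage markers, 1 rose, 1 fell and 4 did not pass among 6, with sums of 5285 to 9015 in Rnf40+/+ and 3362 to 3672 in Rnf40-/- libraries, of which Lyz2, the macrophage lysozyme and the marker that fell, took 3945 to 7440 and 2093 to 2383, and Csf1r, the macrophage growth factor receptor, was at 307 to 450 and 308 to 324. The marker that rose was Ptprc, which marks all leukocytes, from 62.6 ± 14.8 to 160 ± 9.38 normalized counts (log2 fold change 1.37, adjusted p = 1.20e-04, limma). Lyz2 and Csf1r were picked after their values were seen. Endothelial markers summed to 46.9 to 143 and 173 to 265 normalized counts, with 3 of 4 higher. The highest Rnf40+/+ sum was mostly Tek, which was not called and was at 115 in replicate 1, far above the other Rnf40+/+ libraries. Of the risers, Pecam1 had only 3 to 4 reads and Cdh5 only 1 to 5 per Rnf40+/+ library, and Kdr had 18 to 43. Glial and neural crest markers summed to 91.8 to 117 and 151 to 159, with 1 of 3 tested higher. Of epithelial markers 1 could be tested and it did not pass, and of erythroid markers none passed the filter, with sums of 0 to 1.02 and 1.02 to 7.55 and Hbb-b1 at 0 reads in every library. The part of these cells in the CHD values was not tested; Chd7, which neural crest uses, and Chd5 were the members with the lowest levels.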

How the data were processed

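RNA was sequenced from 3 Rnf40+/+ and 3 Rnf40-/- MEF libraries made with a directional kit. Per the labels, the authors aligned reads to mm9 with Bowtie2 2.1.0 and used DESeq 1.14.0. The deposited values per gene, treated here as a signal, are read counts that the authors divided by a size factor for each library. Division by the value of 1 read gave whole reads for 100% of positive values in every library (tolerance 0.01). The design foresaw edgeR only for a table of whole counts, so limma 3.58.1 (trend) was fitted to log2(normalized count + 1) of the 16378 genes that passed edgeR's filterByExpr, with Benjamini-Hochberg adjustment over all of them, and the fold changes of low genes are understated by the added 1. The count test of edgeR 4.0.16 on the recovered reads was an alternative and called 3857 genes higher and 3940 lower. Other alternatives were DESeq2 1.42.0, TMM and upper-quartile scaling, 3 other filters, pseudocounts of 0.1 and 10, a replicate block, the study's criteria, and leaving out each library. The fits were also run on simulated reads, with far fewer changed genes than were called in these data.

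Reads on genes numbered 17053436 to 26344170 per library, where a count of 3 reads is worth 2.40 to 3.58 normalized counts. Counting precision is lowest for Chd5 and Chd7. Positions, exon lengths and the search for shared 50-base stretches used the GENCODE annotation of mm9, promoter windows came from RefSeq (GRCm38.p6), and primers from the study. Genes named beside the 9 members were Rnf40, the 2 largest called rises and falls of each partner list with Smarca4, Smarca5, Mbd3, Hdac1 and Hdac2, the nearest tested gene on each side of Chd7 and Chd3, and the 2 genes nearest to each of these in pattern. Named outside this rule, after their values were seen, were Rgma, Supt16h, Ptprt and Cyld among the neighbours and the single cell type markers. Gm17305 was named for its overlap with Chd3. Likeness was the root of the summed squared differences of log2 values centred on each gene's Rnf40+/+ mean. The members and all lists were chosen with earlier results of these data known. No protein sequences were used here.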

Additional observations from a re-analysis of the deposited data

How the results depend on the processing

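The 4 rises and 3 falls among CHD genes were called under each of the 10 other scalings, filters, pseudocounts, tests and the block and in each of the 6 fits without 1 library, in which 4 to 5 members were higher and 3 lower. Under the study's criteria, which add a fold limit, 0 members were higher, and 696 genes in all were higher and 934 lower. Without 1 library the Chd4 log2 fold change ranged from -0.06 to 0.05 and that of Hdac2 from -0.05 to 0.02, both never called. Chd5 ranged from 0.27 to 0.71 and was called only without Rnf40+/+ replicate 1. The same omission gave 2 rather than 1 called rise among the H3.3 genes, and single omissions left 0 to 1 called rises among the NuRD partners (not without Rnf40+/+ replicate 2, which left 2) and 1 called fall in the ChAHP list in 4 of 6 fits. The labels give both groups replicate numbers 1 to 3, but same-numbered libraries did not deviate together (r of -0.015, 0.026 and 0.022 over 15528 genes). With the replicate number as a block, 4021 genes were higher and 4196 lower, the 4 and 3 CHD calls were the same in number, and Mbd3 gained a call at -0.21 (adjusted p = 0.0468, limma). Scaling moved the median of all genes by less than 0.1 on the log2 scale. Few reads limit Chd5 and Chd7, and p-values cover only the spread between these libraries.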
